A study of Mus musculus with 4 samples.

Results

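A set of 9 genes of the regulator of G-protein signalling (RGS) group were followed through adult hippocampal neurogenesis: *Rgs2*, *Rgs4*, *Rgs6*, *Rgs7*, *Rgs8*, *Rgs12*, *Rgs14*, *Rgs20* and *Rgs7bp*. They were taken by name as 9 of the 45706 features of the count files, and their level in every deposited cluster and library is the number of unique molecules (UMIs) of the gene scaled to 1000000 UMIs of the same nuclei (CPM). All 9 had UMIs, from 170 for *Rgs4* to 67422 for *Rgs6* over the 14367 nuclei used, and all 9 passed the filter on low counts. The members were chosen by their levels and changes over these same clusters, and the clusters had been built by the authors from the same expression values, with *Rgs6* among the genes by which neuroblasts were named. The levels and changes of these genes are therefore a description. Where a change of one of them is said to pass the thresholds or to be called, this marks its size in a fit over all genes and is no independent test of it.

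The nuclei came from the left dentate gyri of male and female mice on a C57BL/6J background with a tamoxifen-inducible Cre and the *CAG*floxStop-Sun1/sfGFP reporter, which received tamoxifen at 6 to 8 weeks of age. Sun1-sfGFP marks the nuclear envelope of radial glia-like stem cells (RGLs) with Cre activity at the time of tamoxifen, of their progeny, and of any other cell with Cre activity then, which includes the oligodendrocyte lineage. Sorted nuclei were profiled 1, 2, 4 and 8 weeks later (libraries w1, w2, w4 and w8). All groups carried both alleles and received tamoxifen, and each library is 1 pool of 4 mice, so weeks have no replicates and were not tested against each other.

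The libraries held between 2867 (w1) and 4243 (w2) nuclei and between 13227971 and 28595331 UMIs, with a median of 4369 to 7703.5 UMIs per nucleus. The deposited clusters are astrocytes (Astro), RGLs, neural progenitor cells (NPCs), neuroblasts (NB1, NB2), immature granule cells (GCimm1, GCimm2), young granule cells (GCyoung), mature granule cells (GCmat1, GCmat2), a cluster labelled as pericytes (Peri), oligodendrocytes (Oligo) and oligodendrocyte precursor cells (OPCs). In the paper RGLs give rise to astrocytes or NPCs, and the trajectory runs from RGLs to GCmat1. Astrocytes lie outside it. Astrocytes to RGLs, listed here among the transitions, is thus a contrast of clusters and not a step of development. Marker lists of 6 genes each were highest in the named cluster or clusters for all 6 genes, except those for RGL (3 of 6) and for pericytes or leptomeningeal cells (5 of 6). The exception in the last list was *Rgs5*, a defining pericyte gene, which had 0 UMIs in Peri, while *Slc6a13* and *Col1a2*, known from leptomeningeal cells and fibroblasts, were at 648 and 401 CPM, so the cluster is called Peri only. Among the nuclei used, 22 barcodes occurred in more than 1 library. GCmat1 of w1 is 17 nuclei taken 1 week after tamoxifen. The paper finds GCmat1 mainly in w8 and places the maturity of adult-born granule cells weeks later than w1. The origin of these 17 nuclei was not tested, and they are kept here as a library of GCmat1.

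A receptor coupled to a heterotrimeric G protein loads GTP onto its alpha subunit, and alpha-GTP and free beta-gamma then act on cyclases, phospholipases and ion channels. RGS proteins speed the hydrolysis of that GTP and so shorten the signal. The R7 subfamily (*Rgs6*, *Rgs7*) acts on Gi/o, works as a dimer with G beta 5 (*Gnb5*), and is held at the membrane by the anchor encoded by *Rgs7bp* or by the orphan receptor *Gpr158*. *Rgs20* belongs to the RZ subfamily, which acts on G alpha z and Gi. *Rgs12* and *Rgs14*, of the R12 subfamily, carry a second G alpha binding motif, called GoLoco, besides the RGS domain. *Rgs2*, *Rgs4* and *Rgs8* are short proteins of the R4 subfamily, and *Rgs2* prefers Gq.

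On GRCm38 with the GENCODE M21 annotation, 5 of the 9 genes lie on chromosome 1, namely *Rgs2*, *Rgs4*, *Rgs7*, *Rgs8* and *Rgs20*. *Rgs7* spans chr1:175059087-175492500 on the minus strand, *Rgs20* chr1:4909576-5070285 on the minus strand, *Rgs6* chr12:82588292-83162056 on the plus strand, *Rgs12* chr5:34949445-35039644 on the plus strand and *Rgs7bp* chr13:104945904-105054930 on the minus strand. The RefSeq promoter table (GRCm38.p6) matched 7 of the 9 genes, all but *Rgs14* and *Rgs20*. The windows of *Rgs7* and *Rgs7bp*, an R7 protein and its membrane anchor, are shown because the levels of both genes were highest in the same cluster. Each run is the 250 bases upstream of the annotated start, written 5′ to 3′ on the strand of the gene, with motif matches in capitals. The *Rgs7* window covers chr1:175492546-175492795 and the *Rgs7bp* window chr13:105054931-105055180.
Rgs7 promoter: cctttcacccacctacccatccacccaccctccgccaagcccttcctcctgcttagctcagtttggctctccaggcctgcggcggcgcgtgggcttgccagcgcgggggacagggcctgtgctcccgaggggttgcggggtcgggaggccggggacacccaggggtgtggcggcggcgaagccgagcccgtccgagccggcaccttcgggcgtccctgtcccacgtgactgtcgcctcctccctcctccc
Rgs7bp promoter: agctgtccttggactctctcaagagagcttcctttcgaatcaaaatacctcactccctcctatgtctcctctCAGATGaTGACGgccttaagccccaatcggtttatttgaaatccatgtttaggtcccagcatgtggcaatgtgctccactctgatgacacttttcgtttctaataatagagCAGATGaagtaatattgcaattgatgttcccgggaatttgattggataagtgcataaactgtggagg
The motifs searched, on both strands, were the E-boxes CAGCTG and CATCTG, the Sox core ACAAAG, the cyclic AMP response element TGACGTCA, its core TGACG and the TATA box TATAAA. The core is part of the full element. The *Rgs7* window has a GC content of 72.4% with 22 CpG and none of these motifs. The *Rgs7bp* window has 43.2% GC with 5 CpG, and holds the CATCTG E-box as its reverse complement at 2 positions and TGACG at 1. Over the 32851 promoter windows of the table the medians were 52.4% GC and 6 CpG, and 14.4% of windows held CATCTG and 17.8% held TGACG in either orientation. These matches describe the letters of the windows and say nothing about binding.

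The highest pooled level fell at 1 of 6 clusters. *Rgs20* was highest in RGLs, *Rgs12* in NPCs, *Rgs6* in GCimm1, and *Rgs7*, *Rgs7bp*, *Rgs8* and *Rgs14* in GCmat1. For *Rgs4* the highest cluster was GCmat2, with 11 UMIs, and for *Rgs2* Peri, with 2 UMIs. The peaks of *Rgs2*, *Rgs7* and *Rgs6* move to another cluster when libraries are averaged or UMIs are counted per nucleus (*Rgs2* to GCmat1 or GCmat2, *Rgs7* to GCyoung, *Rgs6* to GCimm2). The averages in GCmat1 weigh the 17 nuclei of w1 as much as each other library. For *Rgs7* the average was 945 CPM in GCmat1, with w1 lowest at 858 CPM, and 980 CPM in GCyoung. *Rgs2* in GCmat1 was at 19.2 CPM in w1, from 3 UMIs, and at 3.05 and 2.13 CPM in w4 and w8. With clusters ordered by pooled level, the library ranges of neighbours did not overlap at 6 of 12 pairs for *Rgs6* and for *Rgs7*, at 5 for *Rgs7bp* and for *Rgs20*, and at 3 for *Rgs8*. For *Rgs4*, *Rgs12* and *Rgs14* this held at 1 pair each, and for *Rgs2* at none. The order comes from the same levels, and some clusters have only 2 libraries, whose ranges part easily. The share over all genes was not computed, so these counts do not rank the members.

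**Figure D1:**
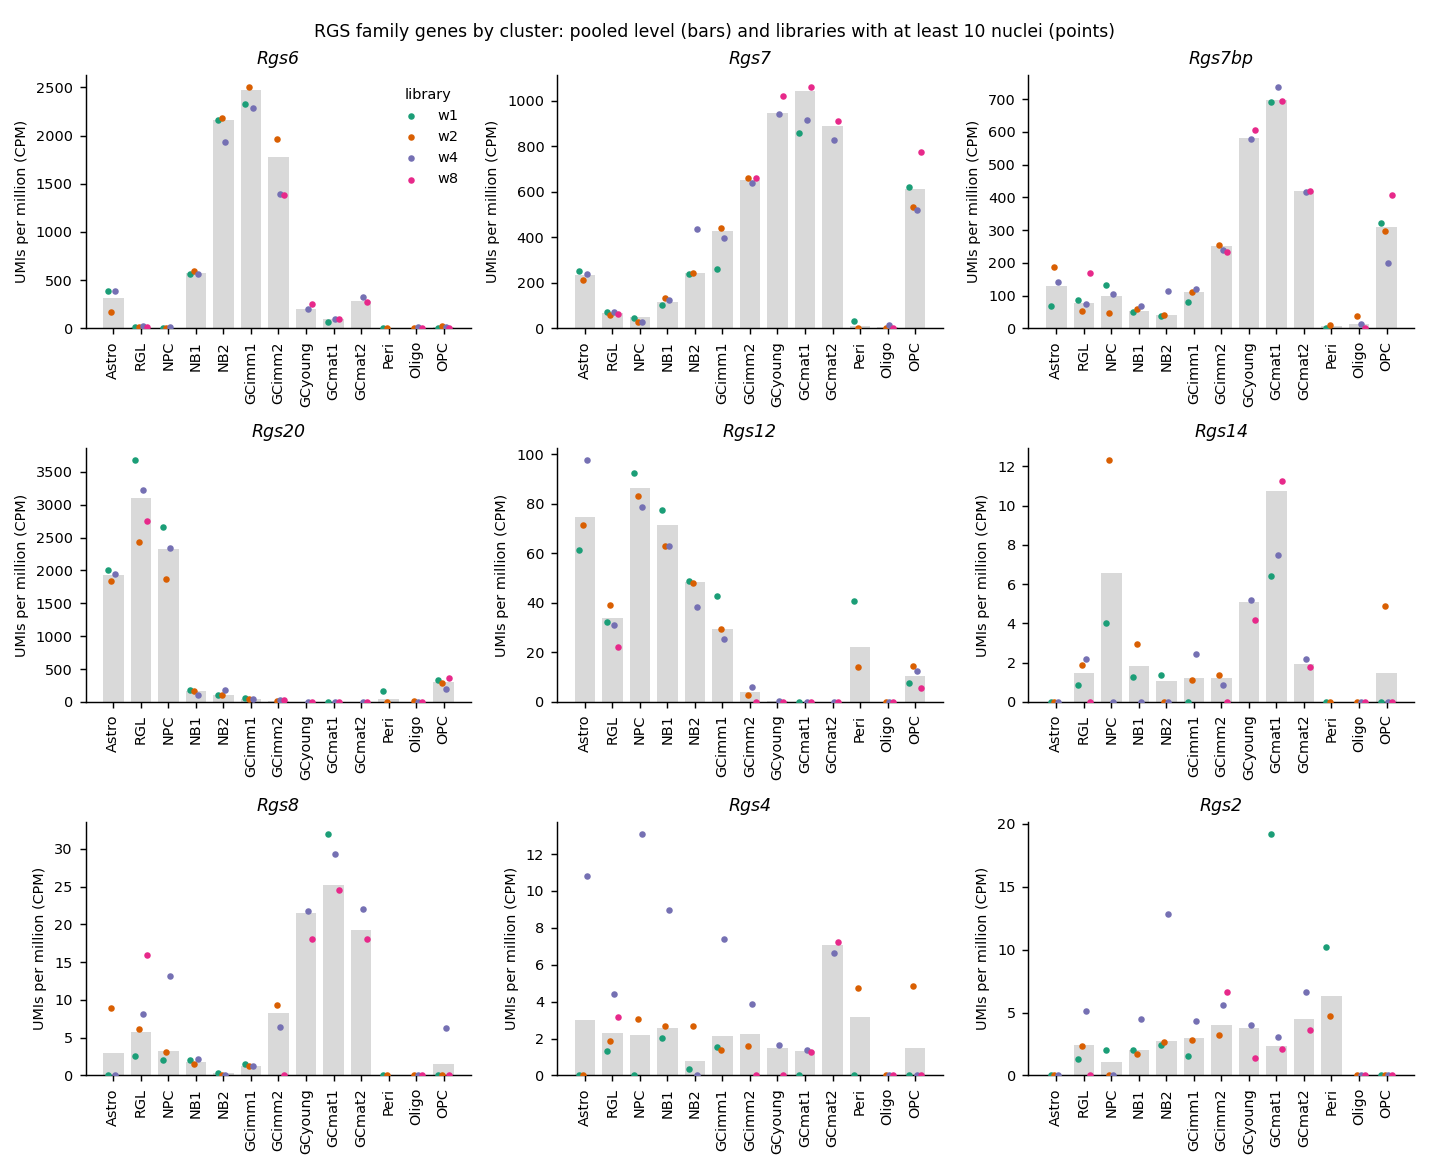
Counts scaled to 1000000 UMIs (CPM, linear axes that differ between panels) of the 9 genes in the 13 clusters. Bars are pooled levels over all nuclei of a cluster and coloured points are the libraries with at least 10 nuclei. Rgs20 fills the astrocyte, RGL and NPC bars, Rgs6 the NB2 to GCimm2 bars, and Rgs7 and Rgs7bp climb to the mature granule cells and are again high in OPCs.

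*Rgs20*, the RZ member, was a gene of RGLs, NPCs and astrocytes. In RGLs its level was 3677, 2436, 3227 and 2744 CPM at 1, 2, 4 and 8 weeks, from 83 to 486 nuclei per library. The weeks do not follow an order, since w2 lies below the others. NPCs held 2659 CPM in w1, 1876 in w2 and 2346 in w4, and astrocytes 1999.6, 1842 and 1951 CPM. In NB1 the level was 174, 161 and 112 CPM in w1, w2 and w4, so that no library of NB1 came near any library of RGLs, NPCs or astrocytes. The fitted log2 change from NPC to NB1 was -3.59 ± 0.23 (SE of the fit over all sums), and 3 libraries held both clusters.

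*Rgs20* then fell further, by -1.67 ± 0.24 from NB1 to GCimm1 and by -1.90 ± 0.36 from GCimm2 to GCyoung on the log2 scale. Along the granule lineage it went from 166 CPM in NB1 to 41.2 in GCimm1, 20.6 in GCimm2, 5.95 in GCyoung and 1.51 in GCmat1. At least 1 UMI was found in 99.2% of 1387 RGLs (exact 95% interval 98.6 to 99.6%) and in 93.4% of 211 NPCs. In GCmat1 the share was 1.22% (0.878 to 1.65%) at a median of 8138 UMIs per nucleus. In oligodendrocytes it was 1 nucleus of 45, or 2.22% (0.0562 to 11.8%) at 4801 UMIs, an interval too wide to say whether the GCmat1 share lies above background. After every nucleus was thinned to 2000 UMIs the shares were 97.3% in RGLs, 85.9% in NPCs, 21.2% in NB1, 0.149% in GCmat1 and 0% in oligodendrocytes.

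The smaller changes of *Rgs20* did not hold in every setting. RGLs were above astrocytes by 0.68 ± 0.21, against a median of 0.27 over all genes in that contrast. This call was lost with other scaling factors and without w1, w2 or w4 (0.60, 0.82 and 0.63). The fall from RGL to NPC, -0.78 ± 0.21, was -0.63 and no longer called without w4. From GCyoung to GCmat1 the change was -1.62 ± 0.44, which rests on w4, since GCyoung in w8 had 1 UMI of the gene, and it was 1.18 ± 1.45 without w4 and -1.998 and uncalled without w8. *Atp6v1h*, a subunit of the vacuolar proton pump, lies across the locus on the other strand, and whether counting used strand is not given in the sources used here. Its own level stayed between 77.4 and 154 CPM over the 13 clusters, while *Rgs20* ranged from 1.51 to 3096 CPM.

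*Rgs6* showed the reverse sequence in neuroblasts. It was nearly absent from RGLs, at 13.05, 16.0, 19.9 and 9.56 CPM in w1, w2, w4 and w8, and from NPCs, where w1 had no UMI in 112 nuclei, w2 had 3 and w4 had 1. NB1 held 569, 597 and 567 CPM in w1, w2 and w4, which lie close together. NB2 held 2160, 2184 and 1934 CPM, and GCimm1 2331, 2507 and 2282 CPM in the same libraries. The libraries of NB2 and of GCimm1 did not overlap, although they lie close. The log2 changes were 7.24 ± 0.48 from NPC to NB1, 1.83 ± 0.22 from NB1 to NB2 and 2.16 ± 0.22 from NB1 to GCimm1. The first of these is set against an NPC level of 4 UMIs (4.38 CPM, exact 95% Poisson interval 1.19 to 11.2), so its size is loosely fixed. The earlier fall from RGL to NPC, -2.07 ± 0.76, rests on the same 4 UMIs and was -1.14 and uncalled without w1 and -3.33 without w2.

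With further maturation *Rgs6* declined. GCimm2 had 1959.5 CPM in w2, 1396 in w4 and 1379 in w8, and the log2 change from GCimm1, -0.44 ± 0.22, did not pass the thresholds. GCyoung had 197 and 255 CPM in w4 and w8, GCmat1 95.1 and 100 CPM in the same libraries and 70.4 CPM in the 17 nuclei of w1. The falls were -2.47 ± 0.27 from GCimm2 to GCyoung and -1.22 ± 0.25 from GCyoung to GCmat1. As a difference of the deposited mean log2 expression the latter was -0.46, short of the fold threshold. Some *Rgs6* stayed in mature cells, with 36.1% of GCmat1 nuclei holding a UMI (15.8% after thinning), against 1 of 45 oligodendrocytes and 0 of 60 Peri nuclei, where the level could be up to 9.48 CPM. In GCmat2, the smaller mature cluster, the level was higher again, at 323 CPM in w4 and 274 in w8. That rise was 1.58 ± 0.26, where the median of all genes moved by -0.14.

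Astrocytes were the second place with *Rgs6*. They held 391 CPM in w1, 169 in w2 and 390 in w4, from 21 to 24 nuclei each, and the change to RGLs was -4.37 ± 0.33. The UMIs were unevenly spread, since 23 of the 67 astrocyte nuclei carried all 106 of them, with a median of 3 and a highest value of 26 per nucleus. In these 23 nuclei 6 immature granule cell markers, *Dcx* among them, summed to 139 CPM, against 159 CPM in the 44 astrocytes without an *Rgs6* UMI. *Dcx* itself was at 16.4 and 9.38 CPM, from 2 UMIs in each set, and 6 mature granule cell markers summed to 65.6 and 23.4 CPM, from 8 and 5 UMIs. The part of granule cell RNA in the *Rgs6* level was not tested. The 6 astrocyte markers summed to 2468 and 2087 CPM in the same sets. *Rgs20* was at 1788 and 2017 CPM, so the astrocytes with *Rgs6* also held the RZ gene.

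**Figure D2:**
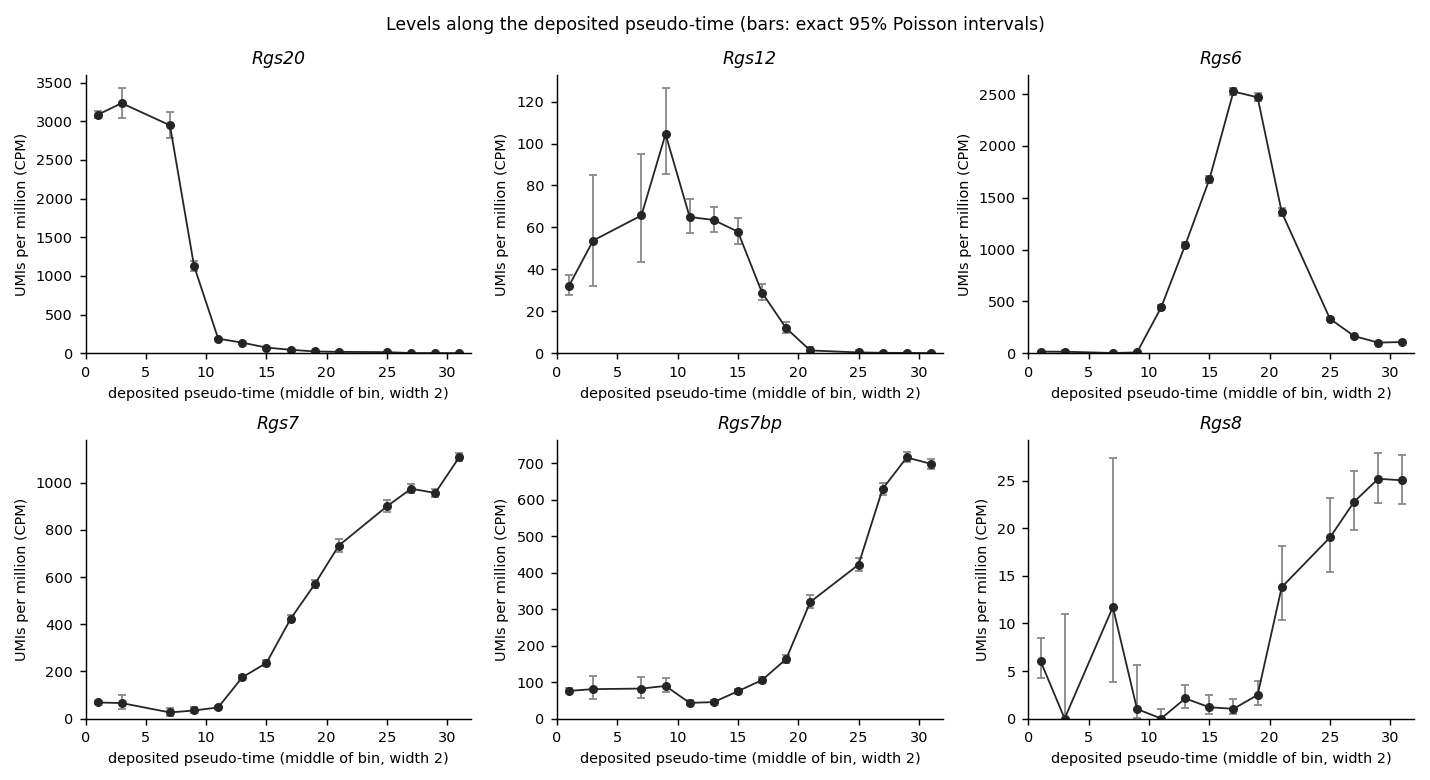
CPM (linear axes that differ between panels) of 6 of the genes in bins of width 2 of the deposited pseudo-time, with exact 95% Poisson intervals. Rgs20 drops between 6 and 12, where Rgs12 has its highest value, Rgs6 forms a peak between 16 and 20, and Rgs7, Rgs7bp and Rgs8 climb toward the end.

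The exchange of *Rgs20* for *Rgs6* was followed along the deposited pseudo-time, which 13635 of the nuclei carry. *Rgs20* was at 2947 CPM between 6 and 8 and at 1128 CPM between 8 and 10, and *Rgs6* at 2.35 and 8.03 CPM in these bins. In steps of 0.5, *Rgs20* went from 1652 CPM at 8 to 8.5 through 621 at 9.5 to 10 to 169 at 10.5 to 11. *Rgs6* was still at 9.59 CPM at 9.5 to 10, in 2 of 96 nuclei, and reached 85.9 at 10.5 to 11 and 408 at 11 to 11.5. *Rgs20* had therefore lost most of its level before *Rgs6* UMIs were common. *Rgs6* then peaked at 2526 CPM between 16 and 18 and stood at 2469 CPM between 18 and 20, before 1361, 332, 166, 103 and 108 CPM in the later filled bins. In w1 and w2, the libraries with over 70 nuclei in both bins, the bin from 8 to 10 had 1226 and 999 CPM of *Rgs20* and that from 10 to 12 had 194 and 183 CPM.

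**Figure D3:**
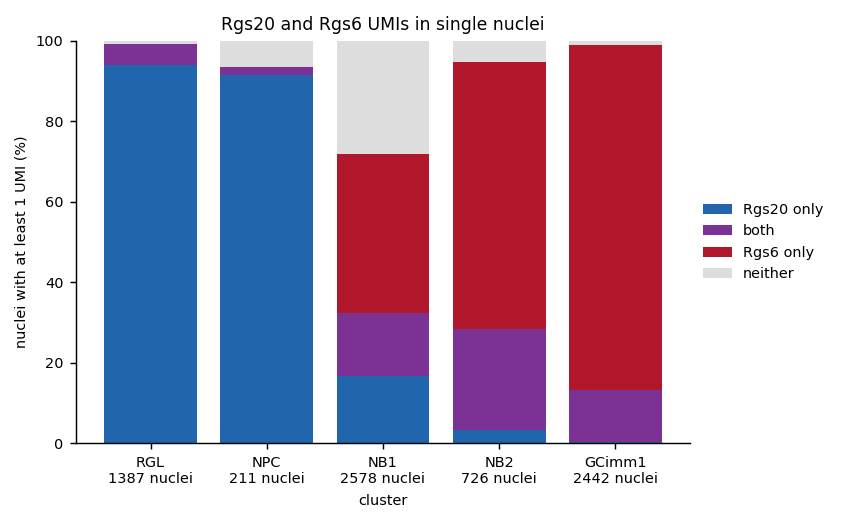
Percentage of nuclei of 5 clusters with at least 1 UMI of Rgs20 only, of both genes, of Rgs6 only or of neither, pooled over libraries. RGLs and NPCs are almost all Rgs20 only, NB1 is mixed with 28.1% neither, and GCimm1 is 85.5% Rgs6 only.

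The nuclei were also counted by cluster. These shares come from the same counts and clusters as the levels, so they are no separate evidence of an order. Whether *Rgs20* and *Rgs6* shared nuclei more or less often than their separate shares would give was not tested. Of 211 NPCs, 91.5% had *Rgs20* UMIs and none of *Rgs6*, and 1.90% had both. Of 2578 NB1 nuclei, 16.7% had *Rgs20* alone, 15.6% both, 39.6% *Rgs6* alone and 28.1% neither. The share of NB1 with neither was 29.6% in w1, 24.1% in w2 and 40.0% in w4, from 1492, 956 and 130 nuclei. In NB2 66.3% and in GCimm1 85.5% of nuclei had *Rgs6* alone. No RGL or NPC nucleus had *Rgs6* without *Rgs20*. Only 11 of 1387 RGLs and 14 of 211 NPCs had neither gene, so this says little about order. A nucleus with no UMI of a gene may still express it at these depths, so the shares are of nuclei with a UMI.

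*Rgs7*, the second R7 member, rose step by step through the neuronal lineage. NB1 held 103, 133 and 125 CPM in w1, w2 and w4, GCimm1 260, 441 and 397 CPM in the same libraries, and GCimm2 659, 641 and 660 CPM in w2, w4 and w8. GCyoung held 940 and 1020 CPM in w4 and w8, and GCmat1 858, 916 and 1062 CPM in w1, w4 and w8. The libraries of GCyoung and GCmat1 overlapped, and the change between them was -0.01 ± 0.20. The called rises were 1.93 ± 0.31 from NPC to NB1, 1.17 ± 0.21 to NB2, 1.72 ± 0.20 from NB1 to GCimm1, 0.85 ± 0.19 to GCimm2 and 0.82 ± 0.21 to GCyoung. The steps to GCimm2 and to GCyoung were of the same size but uncalled without w2 (0.91) and without w4 (0.83), respectively. In w1 the GCimm1 level was below that of w2 and w4, from 129 nuclei.

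From RGLs to NPCs *Rgs7* went the other way, and RGLs were below astrocytes. Astrocytes held 253, 214 and 238 CPM and RGLs 58.3 to 72.9 CPM, with a change of -1.85 ± 0.27. NPCs held 44.1, 27.7 and 26.2 CPM in w1, w2 and w4, and the change from RGLs was -1.10 ± 0.32, or -0.94 and uncalled without w2. The pooled NPC level, 50.4 CPM, lies above all these libraries because it includes 2 nuclei of w8. At maturity 99.3% of GCmat1 nuclei had an *Rgs7* UMI, with a median of 8 per nucleus, against 2.22% of oligodendrocytes, and 84.2% after thinning.

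*Rgs7bp*, the membrane anchor of the R7 proteins, was low in neuroblasts and higher in granule cells. It was at 48.7, 59.9 and 69.5 CPM in NB1 and at 38.0, 39.8 and 115 CPM in NB2 in w1, w2 and w4, the last from 9 UMIs. GCimm1 held 80.9, 111 and 119 CPM, and GCimm2 256, 239 and 233 CPM in w2, w4 and w8. GCyoung reached 579 and 605 CPM in w4 and w8, and GCmat1 692, 738 and 693 CPM in w1, w4 and w8. No transition before NB1 to GCimm1 was called. Pooled levels were 128 CPM in astrocytes, 76.1 in RGLs and 99.6 in NPCs, above 53.8 in NB1 and 40.0 in NB2. The rises were 0.98 ± 0.24 from NB1 to GCimm1, 1.27 ± 0.23 to GCimm2 and 1.37 ± 0.24 to GCyoung. The first was 0.88 and uncalled without w2. The GCyoung and GCmat1 libraries did not overlap, but the change of 0.31 ± 0.23 did not pass the thresholds.

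In GCmat2 both genes were lower than in GCmat1 of the same library. *Rgs7bp* was at 418 CPM in w4 and 419 in w8, below every GCmat1 library, while *Rgs7* was at 829 and 912 CPM, within or just below the GCmat1 range. The log2 changes from GCmat1 were -0.87 ± 0.24 for *Rgs7bp* and -0.21 ± 0.21 for *Rgs7*, beside -0.14 for the median of all genes. The difference between the genes was not tested. The *Rgs7bp* call was lost with DESeq2, with no library term, and without w4 (-0.85) or w8 (-0.83).

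*Rgs12*, of the R12 subfamily, had its highest pooled levels in NPCs, astrocytes and NB1, at 86.5, 74.6 and 71.5 CPM, and was nearly absent from mature granule cells. NPCs held 92.2, 83.2 and 78.6 CPM in w1, w2 and w4, above RGLs at 32.2, 39.0, 30.9 and 22.3 CPM in w1, w2, w4 and w8. The rise of 1.02 ± 0.24 was 0.86 and uncalled without w1. NB1 held 77.6, 62.9 and 62.7 CPM, NB2 48.8, 47.8 and 38.4 CPM, and GCimm1 42.7, 29.2 and 25.2 CPM in w1, w2 and w4. In each of these clusters w1 was the highest library. The fall was -1.02 ± 0.17 from NB1 to GCimm1 and -2.70 ± 0.28 from GCimm1 to GCimm2, where w2 had 15 UMIs, w4 14 and w8 none (up to 19.99 CPM). GCyoung had 6 UMIs, all in w4, and the change of -3.05 ± 0.56 from GCimm2 was -5.77 and uncalled without w4.

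A single *Rgs12* UMI was found in the 3356 GCmat1 nuclei (0.0343 CPM, 0.000867 to 0.191) and none in GCmat2, which allows up to 1.92 CPM. Along the pseudo-time the level was 32.2 CPM between 0 and 2, highest at 104 between 8 and 10, 58.0 between 14 and 16 and 1.33 between 20 and 22. The peak rests mostly on w1, with 71 of its UMIs and 119.5 CPM, and was not seen in w2, at 80.5 CPM between 6 and 8 and 76.7 between 8 and 10. Astrocytes held 61.3, 71.2 and 97.5 CPM, from 25 UMIs in all. The change to RGLs, -1.13 ± 0.35, was uncalled without any one of w1, w2, w4 or w8 (-1.22, -1.29, -0.86 and -1.03).

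*Rgs14*, the other R12 member, known from hippocampal area CA2, was sparse, with 470 UMIs in all. Its highest cluster was GCmat1, at 6.40 CPM in w1 (1 UMI), 7.49 in w4 (27 UMIs) and 11.3 in w8 (285 UMIs). GCyoung held 5.19 and 4.18 CPM in w4 and w8, against 1.40 and 0.863 CPM in GCimm2 of w2 and w4 and 0 UMIs in w8, which allows up to 19.99 CPM. The rise was 2.38 ± 0.62, or 2.18 and uncalled without w4. GCmat2 had 3 UMIs, at 2.21 and 1.81 CPM. The change from GCmat1 of -2.45 ± 0.72 was -2.70 without w4 and -1.87 without w8, uncalled in both. The CA pyramidal or mossy cell list was at 449 and 625 CPM in GCmat1 of w4 and w8 and at 508 and 623 CPM in GCmat2, and its part in the *Rgs14* level was not tested.

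Of the R4 genes only *Rgs8* had enough UMIs for a course. It was at 1.53, 1.19 and 1.23 CPM in GCimm1 of w1, w2 and w4 and at 9.38 and 6.47 CPM in GCimm2 of w2 and w4, with no UMI in w8 (up to 19.99 CPM). GCyoung held 21.8 and 18.1 CPM in w4 and w8, and GCmat1 32.02, 29.4 and 24.6 CPM in w1, w4 and w8, the first from 5 UMIs. The rises were 2.83 ± 0.42 from GCimm1 to GCimm2 and 1.65 ± 0.34 to GCyoung, and they were 2.07 without w2 and 0.99 without w4, both uncalled. *Rgs8* had a low second level in RGLs, at 2.61, 6.11, 8.10 and 15.9 CPM in w1, w2, w4 and w8, from 6, 13, 11 and 5 UMIs. The last library has the highest level and the fewest nuclei, and its Poisson interval overlaps that of w4.

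*Rgs2*, which encodes the Gq regulator, had 260 UMIs and was called at none of the 9 transitions. Its pooled level lay between 1.09 and 4.01 CPM in the clusters from RGLs to GCmat1 and was 4.49 CPM in GCmat2, from 7 UMIs. No UMI was found in astrocytes, oligodendrocytes or OPCs, which allows up to 8.95, 13.7 and 4.44 CPM. *Rgs4* had 170 UMIs, and its pooled level was highest in GCmat2. Its level there was 6.63 CPM in w4 (3 UMIs) and 7.22 in w8 (8 UMIs), against 1.39 and 1.26 CPM in GCmat1 of the same libraries. Other clusters of w4 reached as high, with 8.96 CPM in NB1 (4 UMIs) and 7.39 CPM in GCimm1 (12 UMIs). The change of 2.24 ± 0.63 was 2.12 and uncalled without w8, and 5.26% of GCmat2 nuclei (2.66 to 9.22%) had a UMI against 1.10% of GCmat1 nuclei (0.777 to 1.52%).

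**Figure D4:**
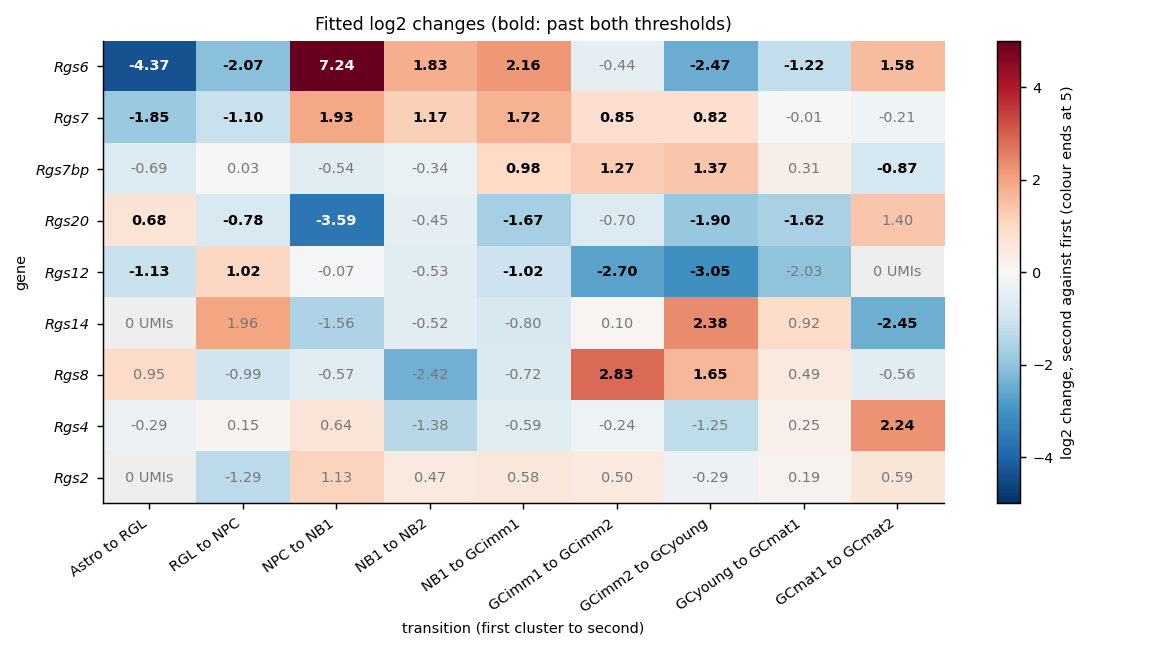
Fitted log2 change of each gene (rows) at the 9 transitions (columns), with the value printed in each cell. Bold cells pass both thresholds, and cells where 1 of the clusters had 0 UMIs carry no value. Rgs6 passes at 8 transitions and Rgs2 at none, and 7 of the 9 genes pass from GCimm2 to GCyoung.

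Counted by transition, the genes past a fold change of 1.5 and a Benjamini-Hochberg adjusted p of 0.05 (edgeR quasi-likelihood test) are given beside the share of all 13513 genes tested. From astrocytes to RGLs 4 of the 9 passed, 1 higher and 3 lower, where 9.58% of all genes passed (4.77% higher, 4.82% lower). At RGL to NPC 4 passed, 1 higher and 3 lower (29.5% of all genes, 13.7% higher and 15.9% lower), and at NPC to NB1 3, with 2 higher and 1 lower (29.3%, 14.7% and 14.6%). At NB1 to NB2 2 passed, both higher (2.94%, 1.81% higher and 1.13% lower), and at NB1 to GCimm1 5, with 3 higher and 2 lower (12.5%, 7.76% and 4.75%). At GCimm1 to GCimm2 4 passed, 3 higher and 1 lower (9.43%, 6.52% and 2.91%), and at GCimm2 to GCyoung 7, with 4 higher and 3 lower (18.9%, 9.27% and 9.62%). At GCyoung to GCmat1 2 passed, both lower (3.85%, 1.6% higher and 2.25% lower), and at GCmat1 to GCmat2 4, with 2 higher and 2 lower (7.3%, 3.01% and 4.28%). As a difference of mean log2 expression per nucleus, which understates changes of low genes, 15 of the 35 called changes reached the fold of 1.5, namely 6 of *Rgs6*, 4 of *Rgs7*, 3 of *Rgs20* and 2 of *Rgs7bp*. None of the changes of *Rgs4*, *Rgs8*, *Rgs12* or *Rgs14* did. As the genes were chosen with these contrasts known, nothing is read from the comparison with all genes. The step from GCimm2 to GCyoung moved *Rgs7*, *Rgs7bp*, *Rgs8* and *Rgs14* up and *Rgs6*, *Rgs12* and *Rgs20* down. Without w4 3 genes passed at that step (*Rgs6*, *Rgs7bp* and *Rgs20*), in a fit with 7 residual degrees of freedom in place of 16 that called 3.5% of all genes there. Without w1, w2 or w4 2 genes passed from astrocytes to RGLs, where these fits called 6.01%, 6.54% and 7.1% of all genes. Without w4 or w8 1 gene passed from GCmat1 to GCmat2, where they called 4.07% and 2.82%.

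Outside the neuronal lineage 3 of the genes were high in OPCs. *Rgs7* was at 621, 535, 520 and 774 CPM in w1, w2, w4 and w8, from 25 to 36 nuclei each, and 88.5% of 131 OPCs had a UMI (81.8 to 93.4%). All 4 libraries lay above the GCimm1 libraries and below those of GCyoung. *Rgs7bp* was at 322, 297, 200 and 407 CPM and *Rgs20* at 337, 292, 200 and 368 CPM, with the same order of libraries as *Rgs7*. As a cluster, OPCs therefore held *Rgs20* as well as the R7 pair, which in the granule lineage were highest at opposite ends. Astrocytes did so too, with pooled levels of 1933 CPM of *Rgs20*, 236 of *Rgs7* and 128 of *Rgs7bp*. Whether single OPC nuclei held these genes together was not examined. In oligodendrocytes each of *Rgs6*, *Rgs7* and *Rgs20* had 1 UMI in 45 nuclei and *Rgs7bp* had 3. Of 6 mature granule cell markers, *Tenm1* was at 551 CPM in OPCs and 872 CPM in GCmat1, and it makes up most of their sum of 610 CPM in OPCs. The other 5 were far lower in OPCs than in GCmat1, with *Grin2a* at 13.3 against 3667 CPM, *Slc17a7* at 8.89 against 161 CPM and *Calb1* at 2.96 against 122 CPM. In Peri *Rgs20* had 16 UMIs, all in the 18 nuclei of w1, and none in the 40 nuclei of w2.

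GCmat1 also contains 216 nuclei of w8 without a pseudo-time, beside 2711 nuclei of that library with one. The paper left GCmat1 nuclei with a strong signal of ventral genes out of its pseudo-time fit. It reports more such nuclei than these 216, and whether the 216 are among them was not tested. At these large counts the intervals of abundant genes part at small shifts. The share of all genes whose intervals part was not computed. *Rgs6* was at 34.2 CPM (27.2 to 42.4) in nuclei without and 107 CPM (103 to 112) in nuclei with a pseudo-time. *Rgs7bp* was at 603 CPM (572 to 635) and 703 CPM (692 to 713). *Rgs7* was at 1011 CPM (971 to 1052) and 1067 CPM (1054 to 1081). *Rgs14* was at 16.7 CPM (11.9 to 22.7) and 10.7 CPM (9.39 to 12.1), and *Rgs20* at 3.75 CPM (1.72 to 7.12) and 1.26 CPM (0.847 to 1.82), both with a small overlap of the intervals. The nuclei without a pseudo-time were deeper, with a median of 10885 against 7846 UMIs. These intervals cover counting error within 1 library only.

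The partners and targets of these proteins came from lists of 109 genes, of which 108 were in the files and 72 were tested. At NPC to NB1 19 of the 72 were higher and 10 lower, at GCimm1 to GCimm2 23 higher and 3 lower, and at GCimm2 to GCyoung 16 higher and 11 lower. Among all genes tested 14.7% and 14.6%, 6.52% and 2.91%, and 9.27% and 9.62% were higher and lower at these steps. The median log2 change of the 72 from GCimm1 to GCimm2 was 0.20, and -0.02 over all genes. From astrocytes to RGLs 3 were higher and 12 lower (4.77% and 4.82% of all genes), and at RGL to NPC 7 and 19 (13.7% and 15.9%). At NB1 to NB2 5 were higher and 1 lower (1.81% and 1.13%), and at NB1 to GCimm1 18 and 5 (7.76% and 4.75%). From GCyoung to GCmat1 3 were higher and 4 lower (1.6% and 2.25%), and at GCmat1 to GCmat2 7 and 8 (3.01% and 4.28%).

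Of 13 other RGS genes 8 were tested. At NPC to NB1, where *Rgs20* fell, 2 of them were lower and 1 higher (14.6% and 14.7% of all genes), and *Rgs3* fell by -5.12 ± 0.53, from 44.9 to 1.01 CPM. *Rgs17*, another RZ gene, rose where *Rgs20* fell, by 1.09 ± 0.31 at NPC to NB1 (in 2 of 3 libraries) and 0.71 ± 0.17 at NB1 to GCimm1, and stood at 110 CPM in GCmat1. The R7 genes *Rgs9* and *Rgs11* rose at GCimm1 to GCimm2 by 0.66 ± 0.19 and 1.48 ± 0.25. At GCimm2 to GCyoung none of the 8 passed, where 18.9% of all genes did. *Rgs9* was highest in OPCs, at 60.7 CPM.

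Of the R7 partners, 2 of 4 were tested. *Gnb5*, the obligate G beta 5 partner, rose at NPC to NB1 by 1.98 ± 0.43, from 10.9 to 36.5 CPM, the step at which *Rgs6* and *Rgs7* rose. It then passed at no step until GCmat2, where it was higher by 1.19 ± 0.24. *Gpr158*, the orphan receptor that binds *Rgs7* protein, rose by 2.01 ± 0.22 at GCimm1 to GCimm2 and 1.71 ± 0.22 at GCimm2 to GCyoung, from 32.2 to 140 to 387 CPM. These are steps at which *Rgs7bp* also rose. In GCmat2 *Gpr158* was lower by -1.23 ± 0.22, as *Rgs7bp* was. In astrocytes, where *Rgs7* was above its RGL level, *Gpr158* was at 173 CPM against 19.0 in RGLs, and in OPCs it was at 398 CPM.

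Among the 5 Gi/o/z alpha subunits, all tested, *Gnao1* (G alpha o) fell at RGL to NPC by -1.92 ± 0.19, from 1364 to 451 CPM. *Gnai2* fell at NPC to NB1 by -1.17 ± 0.28, and *Gnai1* rose there and at NB1 to GCimm1, by 0.83 ± 0.28 and 0.86 ± 0.16. *Gnaz*, the G alpha z on which RZ proteins act, was at 11.1 CPM in RGLs and 30.5 CPM in GCimm2, where it rose by 0.70 ± 0.22. This rise, from GCimm1 to GCimm2, was the only called change of *Gnaz*. At NPC to NB1, where *Rgs20* fell, *Gnaz* was not called. Whether *Gnaz* differed between the clusters with high *Rgs20* and later ones as groups was not tested. No alpha i/o/z subunit passed at GCimm2 to GCyoung or later. Of the 6 tested Gq, Gs and G12/13 alpha subunits, *Gnaq* rose at NPC to NB1 by 0.91 ± 0.20 and *Gnal* at NB1 to GCimm1 by 1.23 ± 0.22. *Gnas* fell at GCimm2 to GCyoung by -0.59 ± 0.19.

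GIRK potassium channels, which beta-gamma opens and R7 proteins time, rose in each gene tested from GCimm1 to GCyoung. All 3 tested of 4 were higher at GCimm1 to GCimm2 and again at GCimm2 to GCyoung, where 6.52% and 9.27% of all genes were higher. *Kcnj6* was at 27.1 CPM in NB1, 172 in GCimm1, 427 in GCimm2, 659 in GCyoung and 792 in GCmat1, with a rise of 2.31 ± 0.25 at NB1 to GCimm1. *Kcnj3* was at 148, 276, 487, 880 and 966 CPM in the same clusters. *Kcnj9* was at 7.25, 3.55, 9.89, 32.6 and 33.7 CPM there. Its lower level in GCimm1 than in NB1 was not called, and it rose by 1.68 ± 0.29 at GCimm2 to GCyoung. In GCmat2 *Kcnj6* was lower by -0.95 ± 0.25. *Kcnj3* was also at 131 CPM in astrocytes, and RGLs were lower by -2.01 ± 0.45.

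Gi/o-coupled receptors were the longest list, with 18 of 30 tested. *Grm7*, a metabotropic glutamate receptor, and *Gabbr2*, a GABA-B subunit, rose at NPC to NB1 by 4.49 ± 0.45 and 4.24 ± 0.54, among 6 higher and 2 lower (14.7% and 14.6% of all genes). *Gabbr2* rose again at NB1 to GCimm1, by 2.54 ± 0.21, from 90.7 to 517 CPM. *Cnr1*, the cannabinoid receptor, was highest early in neurons and fell by -1.21 ± 0.16 at GCimm1 to GCimm2 and by -3.19 ± 0.24 at GCimm2 to GCyoung, the step at which *Rgs6* also fell. *Drd2*, the dopamine receptor, fell at NPC to NB1 by -4.09 ± 0.54, from 47.1 to 1.65 CPM. Of the Gq-coupled receptors, 7 of 11 were tested, and *Grm5* and *Chrm3* rose at NPC to NB1 by 4.16 ± 0.39 and 3.69 ± 0.47. *Chrm3*, a muscarinic receptor, fell at GCimm2 to GCyoung by -1.65 ± 0.26 and at GCyoung to GCmat1 by -2.03 ± 0.26, and was higher in GCmat2 by 1.47 ± 0.36.

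Effector genes moved in both directions. Of 7 tested adenylyl cyclases 4 were higher and 1 lower at GCimm2 to GCyoung (9.27% and 9.62% of all genes), with *Adcy1* up by 3.19 ± 0.23, from 14.4 to 158 CPM, and *Adcy5* down by -1.10 ± 0.23. *Adcy8* was at 13.6 CPM in GCyoung, 60.9 in GCmat1 and 335 in GCmat2, where it was higher by 2.62 ± 0.25. *Adcy2* was lower in RGLs than in astrocytes by -0.96 ± 0.22. It fell at RGL to NPC and NPC to NB1, by -2.22 ± 0.27 and -1.60 ± 0.32. It rose again at GCimm1 to GCimm2, by 1.57 ± 0.24, and stood at 24.5 CPM in NB1 and 579 CPM in GCmat1. Of the phospholipase C beta genes, *Plcb4* fell by -1.15 ± 0.17 at NB1 to GCimm1 and -4.32 ± 0.29 at GCimm1 to GCimm2, as *Rgs12* did at both steps, and was higher in GCmat2 by 3.95 ± 0.41. Among 8 tested beta and gamma subunits, *Gng2* rose at NPC to NB1 by 1.39 ± 0.22 and *Gng7* at GCimm2 to GCyoung by 1.32 ± 0.20, while *Gng12* fell at both, by -1.02 ± 0.23 and -1.74 ± 0.27. Of the GoLoco and Ric8 regulators, 5 tested, *Gpsm2*, which orients the mitotic spindle, rose at RGL to NPC by 1.90 ± 0.39 and fell at NPC to NB1 by the same amount, -1.90 ± 0.37.

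The genes whose levels over the 13 clusters were most like those of a member were found among 8997 genes with at least 1000 UMIs, by Pearson's r of log2(CPM + 10). *Rgs7* was closest to *Dlgap1* (r = 0.979), *Fgf14* (0.978) and *Mapk10* (0.968). *Rgs6* was closest to *Kcnk1* (0.944), a potassium leak channel, and *Rgs20* to *Arhgef26* (0.962). *Rgs12* was closest to *Trp53inp1* (0.968) and *Rgs8* to *Gm26652* (0.961). The clusters share libraries and depth, and these values describe likeness of pattern over 13 points only. For *Rgs2*, *Rgs4* and *Rgs14*, at 260, 170 and 470 UMIs, the closest genes (*Pdlim7*, 0.909, *Ap4s1*, 0.894, and *Lct*, 0.984) rest on few counts.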

How the data were processed

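Sorted nuclei from 4 libraries (1 pool of 4 mice each) were sequenced with 3′ v3.1 droplet chemistry. Per the labels and methods, the authors aligned reads with STARsolo 2.7.4a to mm10, left out multi-mapped reads, and deposited whole UMI counts per gene and barcode over exons and introns, which are not normalized. The deposited table of log2 expression, which the authors made from counts over scran size factors with 1 added, was used for the cluster and pseudo-time of each nucleus and for one alternative. Doublets (scDblFinder) and low-quality nuclei and a group of week 4 nuclei that might come from 1 outlying mouse had been removed by the authors before clusters were given, and no further caller was run. Of 17046 barcodes, 14367 had a deposited cluster and were used.

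The members and gene lists were chosen with earlier results of these data known. UMI counts were summed per cluster and library, and the 29 sums with at least 10 nuclei were fitted over all 13513 genes past the low-count filter with edgeR 4.0.16 (R 4.3.3; TMM factors, cluster and library terms, quasi-likelihood test, Benjamini-Hochberg adjustment). A call needed a fold change of at least 1.5 and an adjusted p of at most 0.05. The script was tested on simulated data. The named list genes were, per list and transition, up to 2 called higher and 2 called lower with the largest change and at least 50 UMIs over both clusters. Levels are pooled counts scaled to 1000000 UMIs. Poisson and Clopper-Pearson 95% intervals cover counting error only, and a count of 0 allows up to 3 counts. Libraries are pools of animals that also differ in week, and which weeks shared a processing day is not given in the sources used here. The SE was taken from the log2 change and the F statistic of its test. It rests on the spread left after the cluster and library terms over all sums (16 residual degrees of freedom). It is not a spread over the libraries that hold both clusters. Thinning to 2000 UMIs left out 141 nuclei. Alternatives were DESeq2 1.42.0, other factors, filters, cluster sizes, thinning and leaving out each library. Motifs were counted with Python 3.11.15. The gene closest in pattern to *Rgs7bp* is not reported here.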

Additional observations from a re-analysis of the deposited data

Results flagged for a closer look

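In w4, 1628 barcodes carry no deposited cluster and entered no comparison, at a median of 8943 UMIs. All 9 genes had UMIs in them above the limit that a count of 0 allows. *Rgs4* was at 14.7 CPM and *Rgs2* at 8.30 CPM there. In the barcodes without a cluster of w1, w2 and w8, *Rgs4* was at 2.66, 4.04 and 2.76 CPM. *Rgs7* was at 1026 CPM, *Rgs7bp* at 463 CPM, *Rgs6* at 230.1 CPM, *Rgs20* at 101 CPM, *Rgs8* at 18.1 CPM, *Rgs12* at 4.62 CPM and *Rgs14* at 1.84 CPM. By the study's methods, nuclei without a cluster include doublets, low-quality nuclei and, at week 4, a group set aside as possibly from a single outlying mouse. Which barcodes belong to that group is not given in the sources used here.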

How the results depend on the processing

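Of the 35 called changes of the 9 genes, 34 kept direction and call with RLE factors and with no filter on low counts, 31 with DESeq2 and with no library term, 28 of 30 after thinning, and 15 by the difference of mean log2 expression. Leaving out w1 kept 31 of 35, w2 26 of 32, w4 24 of 34 and w8 30 of 35. The *Rgs20* change from GCyoung to GCmat1 turned to 1.18 without w4 and ranged from -1.998 to 1.18 over the left-out libraries. Beside the member counts that follow, fits with 1 library left out called 6.01% to 9.94% of all genes from Astro to RGL. They called 20.2% to 27.5% at RGL to NPC, 3.28% to 8.89% at GCimm1 to GCimm2 and 3.5% to 19.4% at GCimm2 to GCyoung. At GCyoung to GCmat1 they called 1.5% to 3.99% and at GCmat1 to GCmat2 2.82% to 8.33%. The count of genes past the thresholds, with 1 library left out, was 2 to 3 from Astro to RGL (4 with all), 2 to 4 at RGL to NPC (4), 2 to 5 at GCimm1 to GCimm2 (4), 3 to 7 at GCimm2 to GCyoung (7), 1 to 2 at GCyoung to GCmat1 (2) and 1 to 4 at GCmat1 to GCmat2 (4). By mean log2 expression it was 3 from Astro to RGL, 2 at NPC to NB1 (3 with the fit), 1 at RGL to NPC, 1 at NB1 to NB2, 2 at NB1 to GCimm1, 1 at GCimm1 to GCimm2, 3 at GCimm2 to GCyoung, 0 at GCyoung to GCmat1 and 2 at GCmat1 to GCmat2. DESeq2 gave 1 at GCyoung to GCmat1 and 2 at GCmat1 to GCmat2, where no library term gave 1. Sums of at least 5 nuclei and thinning gave 2 there, since *Rgs4* and *Rgs14* fell to the filter (12246 and 9226 genes tested) and *Rgs6* and *Rgs7bp* kept their calls, as they did without w2, where the same 2 genes were not tested. The cause of the other drops was not tested, and residual degrees of freedom fell from 16 to 7 without w4. Scaling moved the median of all genes from Astro to RGL from 0.27 to 0.07 (RLE) and -0.00 (DESeq2). Clusters were paired within libraries by the library term of the fit, and without it 31 of 35 calls held. The weeks have 1 library each and were not compared. Genes under about 500 UMIs (*Rgs2*, *Rgs4*, *Rgs14*) are limited by counting error.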
